A study of Mus musculus with 17 samples.

Results

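Transcript levels of 10 genes for receptors that guide leukocytes were followed in 32D, an immortalised mouse line of myeloblast-like cells that needs interleukin-3 (IL-3) to grow. The genes were taken by name, with earlier results of these data known. They were the chemokine receptors Ccr1, Ccr2, Cxcr2, Cxcr4 and Cx3cr1 and the formyl peptide receptors Fpr1 and Fpr2. The others were the leukotriene receptor Ltb4r1, the complement receptor C5ar1 and the nucleotide receptor P2ry13. All 10 were among the 20227 genes with a value. A gene value here is the mean log2 signal of the probe sets (each aimed at 1 exon or part of 1) that carried only that gene's symbol and had a mean above 4.599 over the arrays, the median over all probe sets. Of the 51 probe sets of the 10 genes, 33 entered the values and 18 did not. Fpr1 and Fpr2 each rested on 1 probe set, Ccr2 on 2, C5ar1 and Cx3cr1 on 3, Ltb4r1 and P2ry13 on 4, and Ccr1, Cxcr2 and Cxcr4 on 5.

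Chemoattractant receptors span the membrane repeatedly and signal through heterotrimeric G proteins of the Gi class, which lower cyclic AMP and release beta-gamma subunits that activate phospholipase C and phosphoinositide 3-kinase. The outcome is directed migration, adhesion or degranulation, and G protein-coupled receptor kinases and arrestins then switch the receptor off. In bone marrow, Cxcr4 and its ligand Cxcl12 hold progenitors and neutrophils in place, Cxcr2 mobilises neutrophils, and Ccr2 does the same for monocytes. Several of the other receptors rise as granulocytes and monocytes mature.

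The study used 17 Affymetrix Mouse Exon 1.0 ST arrays in 5 groups. Parental cells were not transduced (2 arrays). The vector group carried the empty retroviral vector pLXRN (2 arrays), and the WT group carried human wild-type FLT3, a receptor tyrosine kinase of haematopoietic progenitors, in that vector (2 arrays). The WT+FL group was wild-type FLT3 cells given FLT3 ligand at 20 ng/mL (2 arrays). The 9 ITD lines each carried a different human FLT3 with an internal tandem duplication, a class of activating mutation found in leukaemia (1 array each, numbered 1 to 9). IL-3 (mouse, 1 ng/mL) was present for parental, vector and WT cells, called the IL-3 controls, and absent for ITD cells, so mutation and absence of IL-3 cannot be told apart. The transduced lines were polyclonal populations, and the vector and WT lines were selected with G418. By the growth protocol, which is followed here, WT+FL cultures were split from the WT line, so both groups would describe the same line; the titles of these samples read instead as if the ligand had been transduced. Whether they still received IL-3 is not stated outright. The titles call the arrays of a pair biological replicates without saying whether lines or cultures were separate. Each p-value therefore measures the spread between these arrays and between the mutants, part of which may be technical.

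Over all genes, profiles within a pair correlated at 0.983 to 0.986 and those of different ITD lines at 0.966 to 0.988. The transgene check held: Flt3 was 5.12 to 5.37 on the parental and vector arrays, 6.73 to 6.89 on the WT and WT+FL arrays and 7.08 to 7.32 in the ITD lines, although the array is a mouse design and the transgene is human. Of the defining markers of the labelled cell type, Mpo and Prtn3 were bright in every group (group means of at least 10.96), whereas Kit and Cd34 had group means of 5.44 to 5.75. Marker lists moved with the groups, that of the labelled type included. The mean level of its 10 measured markers was 10.0 to 10.2 on the parental and vector arrays. It was 9.50 to 9.61 on the WT and WT+FL arrays and 9.35 to 9.71 in the ITD lines. The mean level of 10 mature neutrophil markers was 8.40 to 8.97 on the 8 arrays of the other groups and 7.09 to 8.28 in the ITD lines. That of 11 monocyte and macrophage markers was 6.95 to 7.50 against 5.97 to 6.68. The mean of 9 mast cell, basophil and eosinophil markers was 10.9 to 11.0 in parental cells, 9.26 to 9.27 with vector, 7.27 to 7.47 in WT and WT+FL and 8.47 to 10.0 in the ITD lines. The 7 lymphoid markers stayed at a mean of 5.15 to 5.90. The part of these markers in the receptor results was not tested, and in bulk RNA fewer cells of a type and less RNA per cell cannot be told apart.

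P2ry13 and C5ar1 were lower in the ITD lines than in each of the other 4 groups. Ccr1 was highest in cells with wild-type FLT3, Cxcr2 and Cxcr4 were highest in parental cells, and Cxcr4 and Ltb4r1 lay above some control groups and below others in the ITD lines. In the comparison of the ITD lines with the unweighted mean of the 3 IL-3 control groups, 6 of the 10 genes were called lower and none higher, where a call is an adjusted p under 0.05 (limma, Benjamini-Hochberg over all 20227 genes). Over all genes, 19.4% were called in that comparison, 8.15% lower and 11.2% higher. The median log2 difference of the 10 receptors was -0.49, beside -0.01 over all genes. For 5 of the 6, the ITD mean was below the mean of every IL-3 control group, as it was for 24.1% of all genes; Ccr1 was the exception. For 2 of them, C5ar1 and P2ry13, all 9 ITD arrays lay below all 6 control arrays, which held for 1.39% of all genes. Because the receptors were chosen with earlier results of these data known, these counts describe the chosen genes only.

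**Figure D1:**
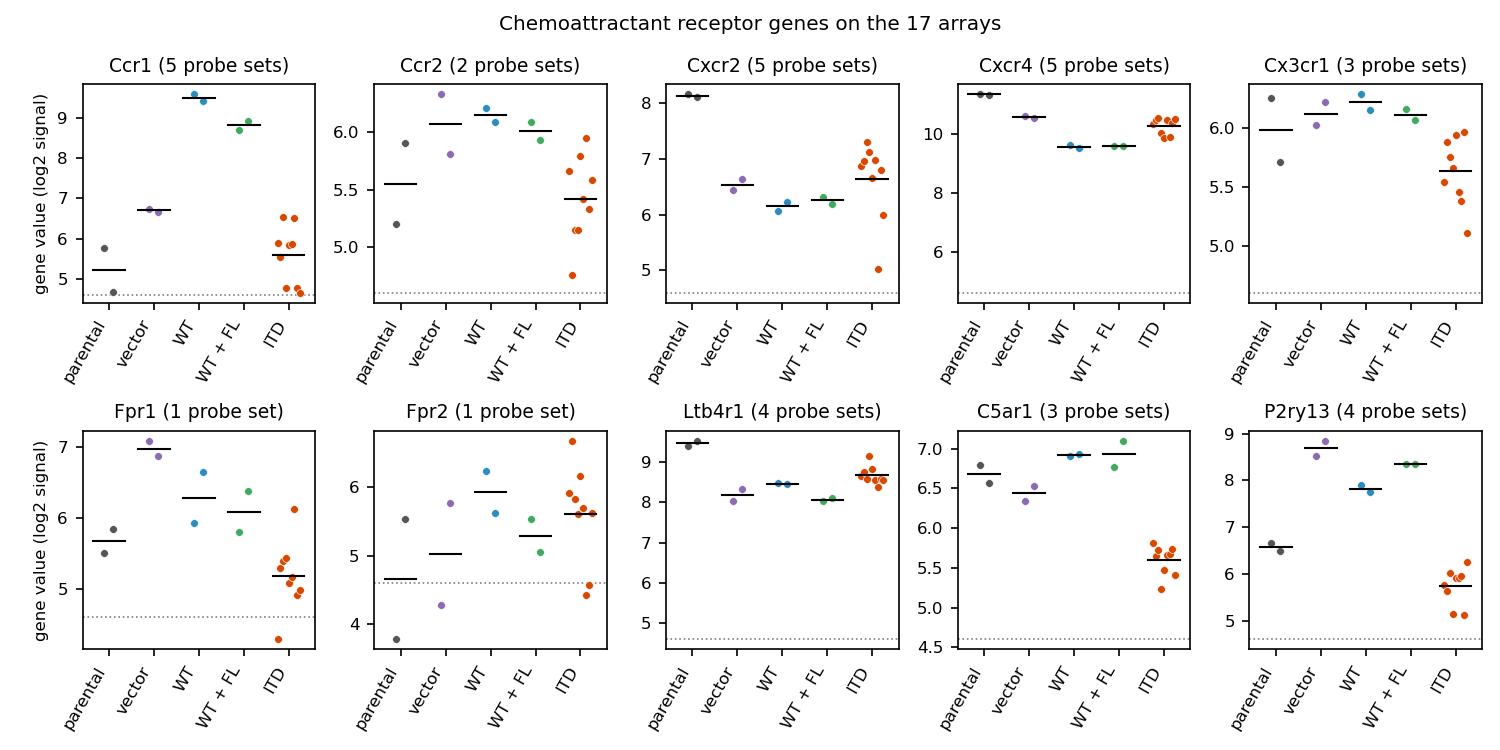
Gene values (log2 signal) of the 10 receptor genes on each of the 17 arrays, 1 point per array, grouped on the horizontal axis as parental, vector, WT, WT + FL and ITD, with a bar at the group mean and a dotted line at 4.599, the minimum mean for a probe set to be used. The 9 ITD points of C5ar1 and P2ry13 sit below all points of the other groups, Ccr1 stands out in WT and WT + FL, and Cxcr2 is widely spread over the ITD lines.

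Because the results differ between genes, the stretch before the transcription start is printed for 4 of them: P2ry13 and C5ar1, lower in the ITD lines throughout, Ccr1, with the widest range over the control groups, and Cxcr4, which ran the other way in WT cells. The sequences are those of RefSeq (GRCm38.p6), each with the 250 bases before the start, 5' to 3' on the gene's strand. The start used for C5ar1 lies inside the span annotated for that gene, so most of its stretch, the marked word included, falls within the gene; the other 3 stretches begin just outside theirs. Capitals mark matches to GAGGAA, the core of sites for the myeloid factor PU.1, and to TTNNGNAA, a C/EBP word, on either strand.
P2ry13, chr3:59210883-59211132, minus strand: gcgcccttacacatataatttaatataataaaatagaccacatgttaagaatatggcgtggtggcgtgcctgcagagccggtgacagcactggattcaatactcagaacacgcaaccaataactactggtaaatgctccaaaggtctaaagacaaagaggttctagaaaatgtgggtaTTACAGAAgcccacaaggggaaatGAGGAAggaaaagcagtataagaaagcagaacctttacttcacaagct
C5ar1, chr7:16259339-16259588, minus strand: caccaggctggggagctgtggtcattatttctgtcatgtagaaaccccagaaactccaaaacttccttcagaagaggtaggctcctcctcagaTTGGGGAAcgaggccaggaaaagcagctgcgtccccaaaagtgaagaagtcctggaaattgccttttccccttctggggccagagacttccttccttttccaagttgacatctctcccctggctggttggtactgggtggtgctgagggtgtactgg
Ccr1, chr9:123968693-123968942, minus strand: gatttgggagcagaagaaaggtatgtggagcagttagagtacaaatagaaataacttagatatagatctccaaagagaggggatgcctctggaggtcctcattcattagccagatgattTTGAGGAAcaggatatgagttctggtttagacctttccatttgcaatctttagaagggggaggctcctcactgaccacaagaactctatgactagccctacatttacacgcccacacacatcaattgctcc
Cxcr4, chr1:128592300-128592549, minus strand: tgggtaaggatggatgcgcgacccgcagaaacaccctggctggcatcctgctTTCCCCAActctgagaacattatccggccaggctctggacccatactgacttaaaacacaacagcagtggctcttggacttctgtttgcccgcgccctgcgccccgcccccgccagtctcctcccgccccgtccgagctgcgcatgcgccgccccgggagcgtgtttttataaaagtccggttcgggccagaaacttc
The P2ry13 stretch held a PU.1 word starting 48 bases and a C/EBP word starting 72 bases before the start. In Ccr1 both words overlapped, starting 129 and 131 bases before it, and the C/EBP words of C5ar1 and Cxcr4 began 157 and 198 bases before it. Over the window from 250 bases before to 50 after the start, the PU.1 word occurred in 5 of the 10 receptor promoters (Ccr1, Cxcr2, Fpr2, Ltb4r1 and P2ry13) and in 28.3% of all 32851 promoters. The C/EBP word occurred in 7 of the 10, all but Cxcr2, Cx3cr1 and Ltb4r1, and in 40.7% of all. A STAT word, TTCNNNGAA, occurred in 1, Fpr2, and in 8.3% of all. A match is a description of letters, and binding was not measured.

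P2ry13, a receptor for ADP found on myeloid cells, was the receptor with the largest fall against the IL-3 controls. Its value was 6.66 and 6.49 in parental cells, 8.53 and 8.85 with vector, 7.90 and 7.75 in WT, 8.34 and 8.36 in WT+FL, and 5.11 to 6.26 with a median of 5.90 in the ITD lines. The order of the group means was therefore vector, WT+FL, WT, parental and ITD, and no neighbours in it overlapped. P2ry13 fell by 1.95 ± 0.15 (log2, SE of the fit) in the ITD lines against the IL-3 controls, 3.86-fold (limma, adjusted p = 6.57e-07). Against single groups the difference was -2.94 from vector, 7.69-fold, -2.60 from WT+FL, 6.08-fold, -2.07 from WT, 4.21-fold, and -0.83 from parental cells, 1.78-fold (limma, adjusted p = 9.96e-07, 3.85e-06, 4.95e-05 and 0.0189). The parental difference was the smallest, and its adjusted p rose to 0.183 without parental replicate 1 and to 0.106 without parental replicate 2. With the stricter filter on dim probe sets it was -0.56 (0.0627). All 4 used probe sets were lower on every ITD array than on any vector, WT or WT+FL array, with differences from vector of -3.63 to -1.89; against parental cells 3 of the 4 were lower on average and 1 was higher by 0.15. Cells with the vector had more P2ry13 than parental cells, by 2.11 ± 0.29 or 4.33-fold (limma, adjusted p = 0.000747), higher in both arrays than in either parental array. In that comparison P2ry13 alone of the 10 receptors was called higher and Ltb4r1 alone lower, beside 1.27% of all genes higher and 0.959% lower.

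The gene lies on chromosome 3 in a row of nucleotide receptors, next to P2ry12, the ADP receptor of platelets and microglia, and 1 gene away from P2ry14, a receptor for UDP-glucose. Neither neighbour was called in any of the 8 comparisons. P2ry14 was 8.94 ± 0.30 (SD, n = 9) in the ITD lines and 8.99 to 9.55 as a mean of the other groups. Its largest difference, ITD minus WT+FL, was -0.61 ± 0.18 (limma, adjusted p = 0.0549). The genes whose values most resembled those of P2ry13 over the 17 arrays were Ltb, the cytokine lymphotoxin beta (Pearson r = 0.966), Gfi1, a zinc finger repressor of the granulocyte lineage (0.965), and Id2, an inhibitor of helix-loop-helix factors (0.957). These coefficients, like those given for the other receptors, are descriptive, since the arrays share lines and 9 of them are ITD arrays.

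C5ar1, the receptor for the complement fragment C5a, was lower in the ITD lines by a similar amount against every group. Its value was 6.79 and 6.57 in parental cells, 6.34 and 6.53 with vector, 6.91 and 6.93 in WT, 6.77 and 7.10 in WT+FL, and 5.24 to 5.81 with a median of 5.66 in the ITD lines. The highest ITD line was thus below the lowest other array. C5ar1 fell by 1.08 ± 0.09 against the IL-3 controls, 2.12-fold (limma, adjusted p = 1.48e-06), and differed by -0.84 from vector, -1.08 from parental cells, -1.33 from WT and -1.34 from WT+FL (limma, adjusted p = 0.000723, 4.09e-05, 3.05e-05 and 2.37e-05). It was called in none of the 3 comparisons without the ITD lines. The 3 used probe sets behaved unequally. A first was 4.61 on average in the ITD lines against 5.86 to 6.87 elsewhere and another 6.52 against 7.64 to 8.38, whereas the remaining one was 5.66 against 5.56 to 6.02. With the median of the probe sets in place of the mean, the difference from vector was -0.34 and not called (limma, adjusted p = 0.299).

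C5ar2, the second C5a receptor, which does not couple to G proteins, lies beside C5ar1 on chromosome 7. Its group means were 6.71 in parental cells, 6.28 with vector, 6.64 in WT, 6.96 in WT+FL and 6.04 in the ITD lines, on 2 probe sets. It too was called lower in the ITD lines, with a difference of -0.50 ± 0.12 from the IL-3 controls (limma, adjusted p = 0.00749), -0.66 from parental cells (0.0146) and -0.92 from WT+FL (0.00451). It was not called against WT (-0.59, 0.0503) or vector (-0.23, 0.421). The closest patterns to C5ar1 were those of Itgb2l, an integrin subunit gene of neutrophils (r = 0.943), Mcemp1, a membrane protein gene of mast cells and myeloid cells (0.937), and Clec4a4, a C-type lectin gene (0.936).

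Ccr1, the receptor for Ccl3, Ccl5 and related chemokines, had the widest range of group means among the 4 groups without a duplication, 4.27 on the log2 scale. Its value was 5.78 and 4.67 in parental cells, 6.74 and 6.67 with vector, 9.57 and 9.41 in WT, 8.69 and 8.92 in WT+FL, and 4.65 to 6.54 with a median of 5.85 in the ITD lines. All WT and WT+FL arrays were above all others, and parental and ITD arrays overlapped. Ccr1 rose by 2.78 ± 0.55 from vector to WT, 6.89-fold, with both arrays higher (limma, adjusted p = 0.00476). In that comparison 1 of the 10 receptors was called higher, Ccr1, and 1 lower, Cxcr4, beside 5.50% of all genes higher and 2.71% lower. The ITD lines differed from WT by -3.89 ± 0.43, 14.8-fold lower, and from WT+FL by -3.21 ± 0.43, 9.23-fold lower (limma, adjusted p = 4.95e-05 and 0.000310). Against WT, 4 of the 10 receptors were called lower and 1 higher, beside 4.44% and 3.27% of all genes. Against WT+FL, 3 were called lower and 2 higher, beside 4.08% and 1.72% of all genes. From vector and parental cells the ITD lines did not pass the test, at -1.11 ± 0.43 (0.0982) and 0.38 ± 0.43 (0.638). Against the 3 IL-3 control groups Ccr1 fell by 1.54 ± 0.29, 2.91-fold (adjusted p = 0.00128), but without the WT line the difference was -0.37 (limma, adjusted p = 0.480). With each control line reduced to its mean the adjusted p was 0.242. Leaving out WT replicate 1 also moved the rise from vector to an adjusted p of 0.0549, at 2.70.

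The 5 used Ccr1 probe sets ran alike. Each was lower on every ITD array than on either WT array, with mean differences from -4.36 to at most -3.50, and each was higher on both WT arrays than on either vector array. A further probe set, not used because its mean over all arrays was 3.62, was 6.73 in WT and 2.12 in parental cells. The other unused probe set did not share the pattern, at 4.16 in WT and 4.36 in the ITD lines. Ccr1 lies in a cluster of chemokine receptor genes on chromosome 9. Of the measured genes near it, Ccr2 is described separately; Xcr1, Ccr3, Cxcr6 and Ccr9 had group means of 4.33 to 5.995 and were called in none of the 8 comparisons. The genes most like Ccr1 in pattern were Csta2, a cystatin gene (r = 0.957), Mmut, the mitochondrial methylmalonyl-CoA mutase gene (0.954), and Rbms1, an RNA-binding protein gene (0.952).

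**Figure D2:**
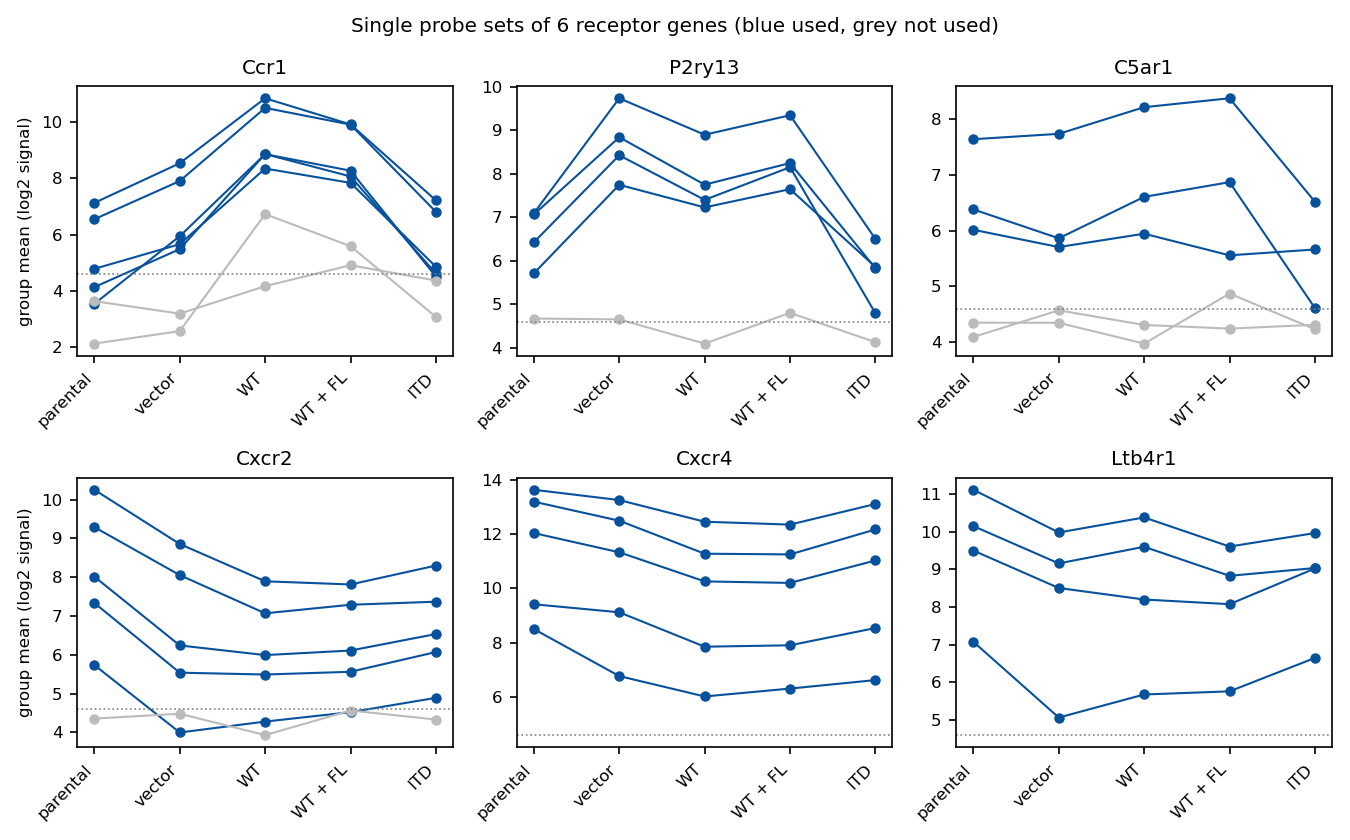
Group means (log2 signal, vertical axis) of every probe set of 6 receptor genes over the 5 groups on the horizontal axis, 1 line per probe set, blue where used and grey where its mean over all arrays was at or under the dotted line at 4.599; lines join groups only to let each probe set be followed. The 5 used probe sets of Ccr1 peak together in WT and the 4 of P2ry13 fall together from vector to ITD, whereas 1 of the 3 used for C5ar1 is nearly level and those of Ltb4r1 part in the ITD lines.

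Ccr2, the receptor for Ccl2 on inflammatory monocytes, lies in the same cluster and behaved differently from Ccr1. Its value was 5.20 and 5.91 in parental cells, 6.33 and 5.81 with vector, 6.22 and 6.09 in WT, 6.09 and 5.93 in WT+FL, and 4.75 to 5.95 with a median of 5.42 in the ITD lines. The ITD arrays overlapped those of parental, vector and WT+FL cells, and all were below both WT arrays. It fell by 0.50 ± 0.17 against the IL-3 controls, which was just called (limma, adjusted p = 0.0478) and lost in 19 of 27 alternatives, including 6 of the 9 in which an ITD line was left out. Only 2 of its 8 probe sets were used.

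Cx3cr1, the fractalkine receptor of monocytes, was similarly dim. Its value was 6.25 and 5.71 in parental cells, 6.02 and 6.22 with vector, 6.29 and 6.16 in WT, 6.16 and 6.06 in WT+FL, and 5.11 to 5.96 with a median of 5.66 in the ITD lines. All ITD arrays were below all vector, WT and WT+FL arrays but not below both parental arrays. It fell by 0.48 ± 0.13 against the IL-3 controls (limma, adjusted p = 0.0168). Neither Ccr2 nor Cx3cr1 was called against any single group. The Cx3cr1 call was lost in 4 of 27 alternatives: without parental replicate 1 (adjusted p = 0.0682), without vector replicate 2 (0.0560), without the WT line (0.0534) and with each control line reduced to its mean (0.152).

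Cxcr2, the receptor for Cxcl1, Cxcl2 and related neutrophil-attracting chemokines, was highest in parental cells. Its value was 8.15 and 8.11 there, 6.44 and 6.64 with vector, 6.07 and 6.22 in WT, 6.32 and 6.20 in WT+FL, and 5.03 to 7.30 with a median of 6.88 in the ITD lines. Every other array was below the parental pair, and the ITD lines overlapped the vector, WT and WT+FL groups. Cxcr2 fell by 1.49 ± 0.39 from parental cells to the ITD lines, 2.82-fold, with all 9 lines lower (limma, adjusted p = 0.0135). In this comparison 5 receptors were called, all lower (Cxcr2, Cxcr4, Ltb4r1, C5ar1 and P2ry13), beside 6.72% of all genes lower and 10.3% higher. All 5 used Cxcr2 probe sets were lower, with differences from -1.96 to -0.85. With either parental array left out, the difference was -1.47 or -1.52 and no longer called (limma, adjusted p = 0.117 and 0.120). Vector cells differed from parental cells by -1.59 ± 0.50 (3.01-fold lower), which did not pass the test over all genes (0.118). Against the 3 IL-3 control groups together the ITD difference was -0.30 ± 0.26 (0.468).

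The SD of Cxcr2 over the 9 ITD lines was 0.71, beside 0.10 pooled within the 4 pairs, an F ratio of 49.2 (one-sided F test, adjusted p = 0.0467 over all genes). The lines were separate transductions, whereas the arrays of a pair may be cultures of 1 line, so the ratio sets unlike kinds of spread side by side and does not test whether mutants differ. Line 7 was lowest at 5.03 and line 9 next at 5.99, and the remaining 7 lines lay between 6.65 and 7.30. Line 7 was the lowest line for 3 of the receptors (Cxcr2, Fpr2 and Ltb4r1) and the highest for 2 (Ccr2 and Fpr1). Because each mutant had 1 array, no single line was tested. Of the 10 receptors, 2 were called for variation, Cxcr2 and Cxcr4, beside 2.55% of all genes. Both calls were close to the threshold. The number called changed in 12 of the 17 fits with 1 array left out, to 0 in 10 of them and to 1 in the other 2. The genes most like Cxcr2 in pattern were Il18r1, an interleukin-18 receptor subunit gene (r = 0.932), Adap1, an ArfGAP gene (0.902), and Cd180, a Toll-like receptor relative (0.902). Cxcr1, the neighbouring receptor gene on chromosome 1, was called in no comparison, with group means of 5.81 to 6.44.

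Cxcr4, the Cxcl12 receptor that retains cells in the marrow, was also highest in parental cells. Its value was 11.36 on both parental arrays, 10.62 and 10.57 with vector, 9.62 and 9.53 in WT, 9.60 and 9.61 in WT+FL, and 9.87 to 10.57 with a median of 10.39 in the ITD lines. The ITD lines lay between parental cells above and WT and WT+FL cells below without overlap. Only line 3, the highest, reached the lower vector array. From vector the ITD lines differed by -0.30 ± 0.16, which was not called (limma, adjusted p = 0.240). Cxcr4 fell by 1.06 ± 0.16 from parental cells to the ITD lines, 2.09-fold (limma, adjusted p = 0.000208), and was 0.72 ± 0.16 higher in the ITD lines than in WT, 1.65-fold, and 0.69 ± 0.16 higher than in WT+FL, 1.61-fold (0.0114 and 0.0169). From vector to WT cells Cxcr4 fell by 1.02 ± 0.21, 2.03-fold (limma, adjusted p = 0.00590). Against the 3 IL-3 control groups the difference was -0.21 ± 0.11 (0.194), and -0.68 (0.000731) without the WT line. All 5 probe sets were used, and all moved the same way in the comparisons with parental cells and with WT. The higher level than in WT was lost with either WT array left out (0.109 and 0.186), and that against WT+FL with either WT+FL array left out (0.190 and 0.191) and with only those groups in the fit (0.0568). The lower level in WT than in vector was lost without vector replicate 1 (0.0576) and without WT replicate 2 (0.0575).

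The SD of Cxcr4 was 0.28 over the ITD lines and 0.04 within pairs, an F ratio of 53.0 (one-sided F test, adjusted p = 0.0452), with the same limit as for Cxcr2. Lines 5, 7 and 4 were lowest at 9.87, 9.91 and 10.04, and the other 6 lay between 10.36 and 10.57. The order of the lines was not that of Cxcr2: line 9, second lowest for Cxcr2, was second highest for Cxcr4 at 10.52. The genes most like Cxcr4 in pattern were Hip1r, an endocytic adaptor gene (r = 0.971), Homez, a homeobox gene (0.966), and Irak3, an inhibitor of Toll-like receptor signalling (0.951).

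**Figure D3:**
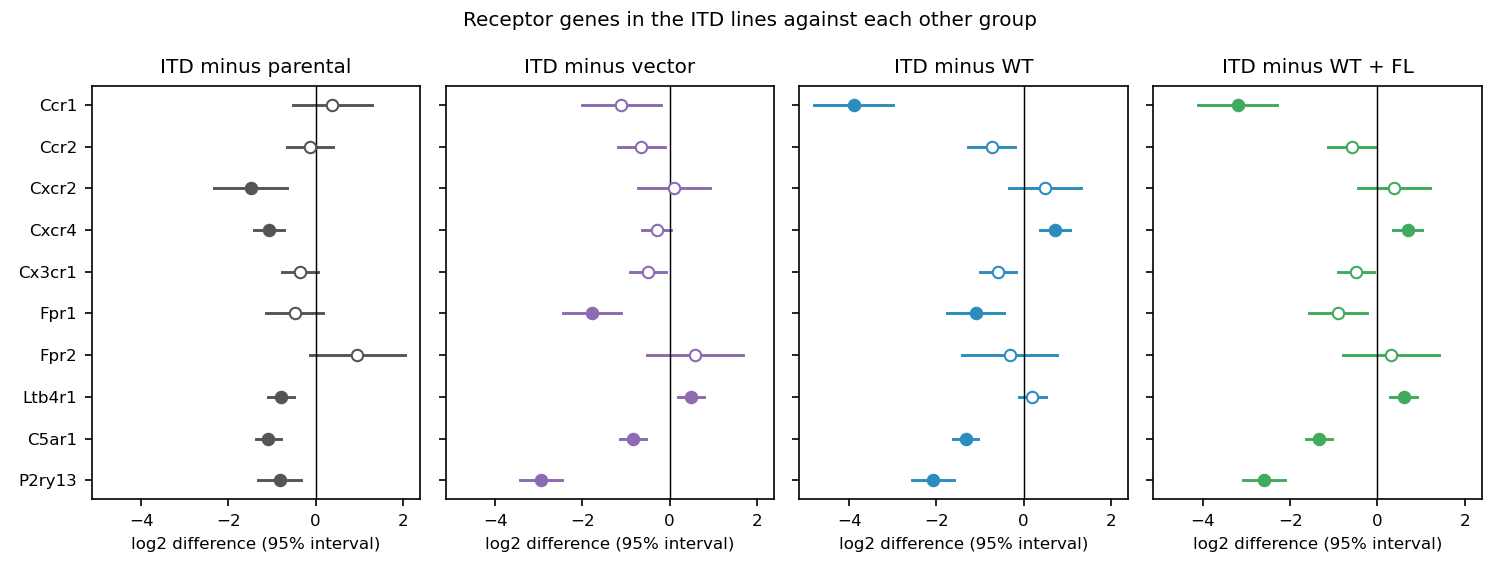
Differences in gene value (log2, horizontal axis) between the 9 ITD lines and each of the other 4 groups for the 10 receptor genes on the vertical axis, with 95% intervals of the fit; filled points were called at an adjusted p under 0.05. C5ar1 and P2ry13 are filled to the left of 0 in all 4 panels, while Cxcr4 and Ltb4r1 are to the left against parental cells and to the right against WT + FL.

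Ltb4r1, the high-affinity receptor for leukotriene B4 on neutrophils, was likewise highest in parental cells. Its value was 9.40 and 9.53 there, 8.03 and 8.33 with vector, 8.47 and 8.46 in WT, 8.03 and 8.11 in WT+FL, and 8.39 to 9.16 with a median of 8.57 in the ITD lines. All ITD lines were below the parental pair and above the vector and WT+FL arrays. Against parental cells, vector cells differed by -1.28 ± 0.19, 2.43-fold lower, and the ITD lines by -0.79 ± 0.15, 1.73-fold lower (limma, adjusted p = 0.00104 and 0.00100). It was higher in the ITD lines than in vector by 0.49 ± 0.15 and than in WT+FL by 0.60 ± 0.15 (0.0320 and 0.0204), and 0.20 ± 0.15 apart from WT (0.456). In the comparison with vector, 3 receptors were called lower (Fpr1, C5ar1 and P2ry13) and Ltb4r1 alone higher, beside 5.21% of all genes lower and 8.82% higher. Against the mean of the 3 IL-3 control groups the difference was -0.03 ± 0.10 (0.855), and 0.35 without the parental line, where it was called (limma, adjusted p = 0.0482). With the stricter filter it was -0.28, also called (0.0203).

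The direction against vector, against WT and against the mean of the IL-3 control groups depended on the probe set. Where the probe sets lie relative to Ltb4r1 and to the adjoining gene Ltb4r2 was not checked, and what part of the Ltb4r1 value, and of its calls against vector and WT+FL, comes from either gene was not tested. Of the 4 used, 2 were higher in the ITD lines than in vector, one of them by 1.58, and 2 were lower, at most by a difference of -0.12. Against WT 2 were higher and 2 lower, from -0.56 to 0.97, and against the IL-3 controls 2 and 2, from -0.60 to 0.71. The small differences of the gene value there average probe sets that moved opposite ways. With the median of the probe sets the difference from vector was 0.20 (limma, adjusted p = 0.394), and with the stricter filter on dim probe sets it was 0.13 (0.495). Without vector replicate 1 it was 0.34 (0.371) and without vector replicate 2 it was 0.65 (0.0832), so this call was lost with either array left out, as it was with only those groups in the fit (0.0743). The call against WT+FL was also lost with either WT+FL array left out (0.242 and 0.180) and with only those groups in the fit (0.0541).

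Ltb4r2, the low-affinity leukotriene B4 receptor gene, lies beside Ltb4r1 on chromosome 14. Its group means were 8.03 in parental cells, 7.15 with vector, 6.52 in WT, 6.79 in WT+FL and 7.99 ± 0.43 (SD, n = 9) in the ITD lines. It was higher in the ITD lines than in WT by 1.47 ± 0.25 and than in WT+FL by 1.205 ± 0.25, with no overlap, than in vector by 0.85 ± 0.25, and than in the IL-3 controls by 0.76 ± 0.17 (limma, adjusted p = 0.00150, 0.00724, 0.0304 and 0.00416). From parental cells it differed by -0.03 ± 0.25 (0.951). The genes of leukotriene synthesis did not move together. Alox5, the lipoxygenase that starts it, was higher in the ITD lines than in the IL-3 controls by 1.17 ± 0.33 (limma, adjusted p = 0.0185, lost in 4 of 28 alternatives), but differed from parental cells by -0.06 (0.958). Lta4h, the hydrolase that makes leukotriene B4, fell by 0.69 ± 0.08 against the IL-3 controls, with all 9 ITD arrays below all 6 control arrays, and Alox5ap, the protein that presents substrate to Alox5, fell by 0.48 ± 0.10 (limma, adjusted p = 2.74e-05 and 0.00338).

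**Figure D4:**
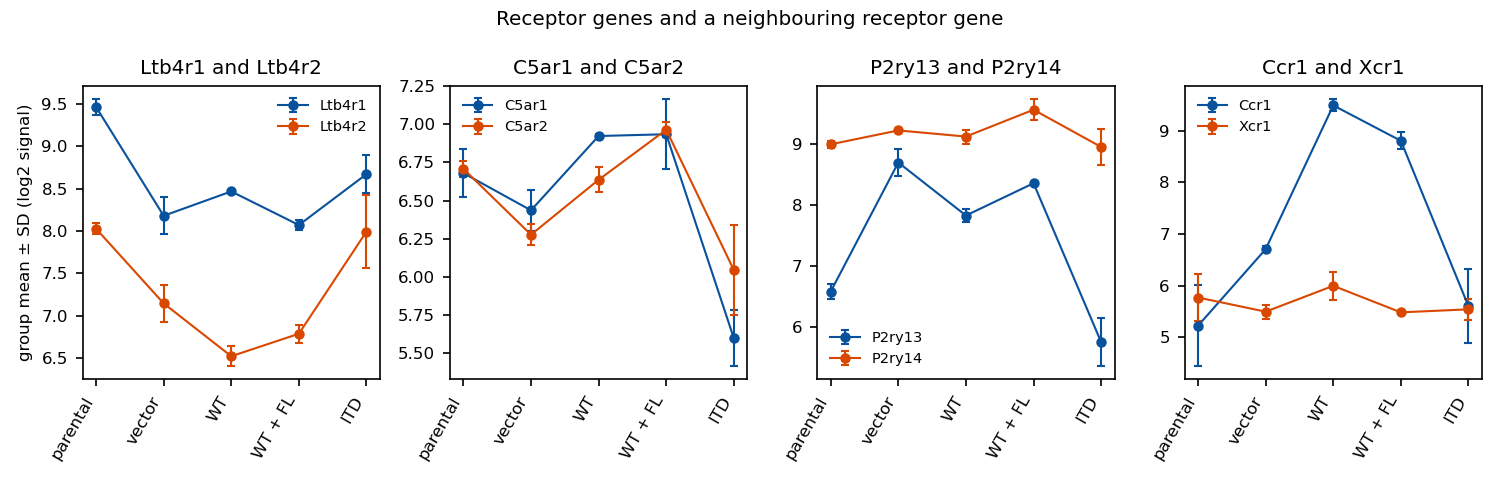
Group means ± SD (log2 signal, vertical axis) of 4 receptor genes, blue, and a receptor gene of the same cluster, orange, over the 5 groups on the horizontal axis (n = 2 arrays, ITD n = 9); heights are not comparable between genes. Ltb4r2 is higher in ITD than in vector, WT and WT + FL, C5ar2 is lowest in ITD as C5ar1 is, and P2ry14 and Xcr1 show little of the range of P2ry13 and Ccr1.

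Fpr1, the receptor for N-formyl peptides of bacteria and mitochondria, was highest with vector. Its value was 5.50 and 5.84 in parental cells, 7.08 and 6.86 with vector, 5.92 and 6.65 in WT, 5.79 and 6.37 in WT+FL, and 4.28 to 6.12 with a median of 5.17 in the ITD lines. Line 7, at 6.12, was the only ITD line above any IL-3 control array; the other 8 were below all 6 arrays of the IL-3 controls. Fpr1 fell by 1.12 ± 0.21 against the IL-3 controls, 2.18-fold, and differed from vector by -1.79 ± 0.31, 3.45-fold lower (limma, adjusted p = 0.00132 and 0.00122). With each control line reduced to its mean, the first had an adjusted p of 0.0738. The difference of -1.098 ± 0.31 from WT (0.0409) was lost in 12 of 24 alternatives, with an adjusted p of 0.502 and a value of -0.73 without WT replicate 2. From parental cells the difference was -0.49 ± 0.31 (0.351). The genes most like Fpr1 in pattern were Dnmt3l, a regulator of DNA methylation (r = 0.902), Ccl4, a chemokine gene (0.892), and Ptgir, the prostacyclin receptor gene (0.879).

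Fpr2, the receptor for lipid and peptide mediators that lies beside Fpr1 on chromosome 17, was called in none of the 8 comparisons. Its single probe set read 3.78 and 5.53 in parental cells, 4.28 and 5.76 with vector, 6.24 and 5.62 in WT, 5.53 and 5.05 in WT+FL, and 4.42 to 6.67 with a median of 5.69 in the ITD lines. Arrays of a pair lay far apart in parental and vector cells, and neighbouring groups overlapped throughout. The difference between the ITD lines and the IL-3 controls was 0.41 with a 95% interval from -0.33 to 1.15 (limma, adjusted p = 0.460).

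FLT3 ligand changed no receptor beyond the threshold. By limma, 0% of all genes were called between WT+FL and WT, where the lowest adjusted p was 0.141. Without adjustment, 1555 genes had a p below 0.05. The largest receptor difference was that of Ccr1, at -0.69 with a 95% interval from -1.84 to 0.47. P2ry13 differed by 0.53 (-0.09 to 1.15) and Ltb4r1 by -0.40 (-0.79 to -0.00414), the latter with an unadjusted p of 0.0479 and an adjusted p of 0.648. When only these 4 arrays entered the fit, the same 3 receptors were called (adjusted p = 0.0122, 0.0227 and 0.0426), and so were 949 genes in all.

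Other genes of the same system were read from 3 lists. Of 35 further chemoattractant receptors measured, 2 rose and 6 fell in the ITD lines against the IL-3 controls, with a median of -0.18 beside -0.01 for all genes. The log2 differences were -0.79 ± 0.12 for Ptafr, the receptor for platelet-activating factor, -0.73 ± 0.24 for C3ar1, the complement C3a receptor, and -0.55 ± 0.14 for Ffar2, a short-chain fatty acid receptor (limma, adjusted p = 0.000170, 0.0443 and 0.0112). The call of C3ar1 was lost in 18 of 28 alternatives. The share called in either direction, 8 of 35, was near the 19.4% of all genes. By direction, 8.15% of all genes fell and 11.2% rose, beside the 6 and 2 of the 35. Against parental cells 1 rose and 7 fell (all genes, 10.3% and 6.72%), against vector 2 and 3 (8.82% and 5.21%), against WT 1 and 1 (3.27% and 4.44%), and against WT+FL 2 and 2 (1.72% and 4.08%). Gpr183, an oxysterol receptor that guides lymphocytes and macrophages, was the only one called between WT and vector. It fell there by 2.32 ± 0.55 (limma, adjusted p = 0.0142), beside 5.50% of all genes higher and 2.71% lower. From parental to vector cells 1 of the 35 rose and none fell, beside 1.27% and 0.959% of all genes.

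Of 24 ligand and ligand synthesis genes measured, 1 rose and 8 fell against the IL-3 controls, beside 11.2% and 8.15% of all genes, with a median of -0.27. The log2 differences were -2.08 ± 0.34 for Ccl3, a Ccr1 ligand, -1.53 ± 0.17 for Ccl4, -1.33 ± 0.13 for Ccl5, another Ccr1 ligand, and -1.24 ± 0.27 for Ccl6 (limma, adjusted p = 0.000407, 1.58e-05, 4.86e-06 and 0.00421). Against vector none rose and 9 fell (all genes, 8.82% and 5.21%), and against parental cells 2 rose and 6 fell (10.3% and 6.72%). Against WT 1 rose and 4 fell (3.27% and 4.44%), and against WT+FL 1 rose and 2 fell (1.72% and 4.08%). In WT cells, where Ccr1 was high, 3 ligand genes fell from the vector level, beside 2.71% of all genes, with differences of -2.31 ± 0.52 for Ccl6, -1.68 ± 0.31 for Ccl9 and -1.33 ± 0.33 for Ccl4 (limma, adjusted p = 0.0105, 0.00303 and 0.0183). From parental to vector cells 2 rose and 1 fell, beside 1.27% and 0.959% of all genes.

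Of 37 genes for signalling and desensitisation of these receptors, 2 rose and 12 fell against the IL-3 controls, beside 11.2% and 8.15% of all genes, with a median of -0.16. The log2 differences were -1.03 ± 0.10 for Rgs2, which speeds the shutting off of G proteins, -0.48 ± 0.14 for Gng2, a gamma subunit gene, and -0.41 ± 0.08 for Arrb2, an arrestin gene. They were -0.41 ± 0.11 for Pik3r5, a regulatory subunit of the phosphoinositide 3-kinase driven by beta-gamma, and -0.40 ± 0.06 for Grk2, a receptor kinase (limma, adjusted p from 3.65e-06 to 0.0222). The call of Gng2 was lost in 8 of 28 alternatives. Against single groups 3 rose and 9 fell from parental cells (all genes, 10.3% and 6.72%), 2 and 10 from vector (8.82% and 5.21%), 2 and 4 from WT (3.27% and 4.44%), and 1 and 6 from WT+FL (1.72% and 4.08%). From vector to WT 1 rose and 9 fell, beside 5.50% and 2.71% of all genes. Among them were Plcb2, a phospholipase C activated by beta-gamma, at -1.24 ± 0.23, Pik3r5 at -0.97 ± 0.20, Arrb1 at -0.80 ± 0.19, Grk2 at -0.79 ± 0.12 and Ptk2b, a focal adhesion kinase relative, at -0.74 ± 0.20 (limma, adjusted p from 0.000963 to 0.0329). None was called between vector and parental cells.

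Part of the markers of neutrophils, of monocytes and macrophages and of the labelled cell type fell beside these genes. Against the IL-3 controls 7 of 10 neutrophil markers and 6 of 11 monocyte and macrophage markers fell, beside 8.15% of all genes, with 1 neutrophil marker higher. Of 10 myeloblast markers 5 fell and none rose. Of 9 mast cell, basophil and eosinophil markers 3 rose and 1 fell, where 11.2% of all genes rose. Of 7 erythroid and megakaryocyte markers 3 rose and none fell. Ly6g, a defining neutrophil marker, was 8.07 in parental and vector cells, 5.46 in WT and 4.66 in the ITD lines as a mean. S100a8, another, was 12.4 to 12.8 in the other groups and 10.9 in the ITD lines. Csf1r, a defining monocyte marker, was 6.13 to 6.78 in the other groups and 5.85 in the ITD lines. Some other members of these lists did not fall. Mmp8, of the neutrophil list, had means of 5.84 to 6.72 in the other groups and 6.80 in the ITD lines. Ly6c2, of the monocyte and macrophage list, had means of 5.28 to 5.68 in the other groups and 5.75 in the ITD lines. Between WT and vector, where Ccr1 rose and Cxcr4 fell, 5 of the 9 mast cell, basophil and eosinophil markers and 4 of the 7 erythroid and megakaryocyte markers fell, beside 2.71% of all genes, and none rose. Prss34, a basophil protease, had means of 12.8 in parental cells, 8.54 with vector, 5.90 in WT and 10.8 in the ITD lines. Not all markers of its list lay above vector in the ITD lines. Fcer1a had means of 11.4 with vector and 10.2 in the ITD lines, and against vector 1 of the 9 was called higher and none lower. The part of these cell types in the receptor results was not tested.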

How the data were processed

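Total RNA of 17 cultures was hybridised to 1 exon array each. The deposited table holds a log2 value for each probe set and array. The submitters' processing notes name RMA and Affymetrix Expression Console 1.1 for this step. RMA corrects background, equalises the distributions of the arrays and combines the probes of a set, which compresses differences of dim probe sets. The genome build is not given in the sources used here. Of 1256831 probe sets, 325444 had a gene symbol in the platform annotation, 6684 of them several (left out). Symbols were updated through RefSeq synonyms, so Cxcr2 was taken from Il8rb. Averaging the 237584 probe sets that passed gave values for 20227 genes. Array medians lay between 4.63 and 4.69. Precision is limited by how many arrays there were.

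Group means for all 17 arrays were fitted with limma 3.58.1 in R 4.3.3 (lmFit, eBayes with a trend, 12 residual and 4.49 prior degrees of freedom), with 8 two-sided contrasts and Benjamini-Hochberg adjustment over all genes. The contrasts share arrays, so the comparisons with the ITD lines are not independent of each other. Variation among the ITD lines was tested by an F ratio (8 and 4 degrees of freedom). The fit was tested on simulated data. All 10 receptors were named in every comparison, and from each list up to 5 called genes of largest difference in 2 comparisons (ITD minus the IL-3 controls, WT minus vector); neighbouring receptor genes, Lta4h, Alox5ap and single markers were named beside them after their values were seen. The receptors, lists and markers were chosen with earlier results of these data known. Replicate numbers did not pair the arrays. Alternatives were 2 other filters on dim probe sets, the median of probe sets, quantile normalisation, symbols not updated, no trend, a replicate block, each array or IL-3 control line left out, lines as units, and only the 2 groups in the fit.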

Additional observations from a re-analysis of the deposited data

How the results depend on the processing

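Over all alternatives, 2713 values of receptors and other named genes kept their side of the threshold, 144 lost a call and 31 gained one. A further 1 reversed: Ltb4r1 in the ITD lines against the IL-3 controls, at 0.35 without the parental line. A change of sign was counted as reversed only where the main fit or the alternative made a call. Uncalled values could change sign uncounted, as Cxcr2 did against the IL-3 controls, from -0.70 to 0.29. The falls of P2ry13 and C5ar1 against the IL-3 controls were called in all 28 alternatives that gave a value, from -2.51 to -1.45 and from -1.35 to -0.65. The stricter filter left Ccr2, Cx3cr1, Fpr1 and Fpr2 without a value. With lines as units, 466 genes and 2 receptors (C5ar1 and P2ry13) were called against the IL-3 controls, and 2491 genes without the vector line. With the median of probe sets 2 receptors were called against vector. For variation among the ITD lines, the receptors called were 1 with the stricter filter and 0 with no filter or with the median. With only the 2 groups in the fit, genes called were 843 against WT, 678 against WT+FL (3 receptors), 949 for WT+FL minus WT (3 receptors), 4883 for WT minus vector (4 receptors) and 2013 for vector minus parental (6 receptors), against 0 and 0 for WT+FL minus WT, 1662 and 2, and 451 and 2 in the fit of all groups. The cause was not tested.

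Leaving out 1 array in turn gave these ranges of genes called: 2675 to 4792 against the IL-3 controls, 1400 to 3897 against parental cells, 706 to 3720 against vector, 281 to 2463 against WT, 243 to 1500 against WT+FL, 0 to 4 for WT+FL minus WT, 456 to 2116 for WT minus vector and 105 to 764 for vector minus parental. The receptors called ranged from 5 to 6, 3 to 5, 3 to 6, 3 to 6, 3 to 6, 0 to 0, 1 to 3 and 2 to 5 in the same order, and from 0 to 2 for variation. The lone array of a group was assumed to vary like the other groups. Against single groups, and between control groups, counts moved by over 1.5 times without an array of the group compared. Without parental replicates 1 and 2 it was 1760 and 1400 for ITD minus parental and 149 and 126 for vector minus parental. Without vector replicates 1 and 2 it was 791 and 706 for ITD minus vector, 516 and 503 for WT minus vector, and 105 and 133 for vector minus parental. Without WT replicates 1 and 2 it was 308 and 281 for ITD minus WT and 456 and 599 for WT minus vector, and without WT+FL replicates 1 and 2 it was 243 and 245 for ITD minus WT+FL. Of the ITD lines, leaving out line 7 raised it to 2463 for ITD minus WT and 764 for vector minus parental, and for WT+FL minus WT it was 1, 4 and 1 without lines 4, 5 and 9. Among the values counted together above, those of the other named genes were 802 unchanged in call, 84 that lost it and 5 that gained it.

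Arrays with the same replicate number in different groups did not deviate together (correlations from -0.12 to 0.09), so the numbers give no pairing. With the replicate block, 3595 genes and 5 receptors were called against the IL-3 controls, Ccr2 being lost at an adjusted p of 0.0598 (limma), and the number of receptors called was unchanged in the other 7 comparisons. RMA compresses differences near background.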
